A study of Mus musculus with 32 samples.

Results

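The TNF superfamily ligands and their receptors were described in whole-lung RNA of newborn mice. A probe belonged to the family when its gene symbol began with Tnfsf or Tnfrsf and a digit, or was Tnf, Lta, Ltb, Fas, Fasl, Cd27, Cd40 or Cd40lg. The rule matched 49 probes of 39 genes, out of 55681 probes on the array. A probe was kept when it was well above background, by the scanner software's own test, on all 4 arrays of at least 1 group, which left 45 probes of 35 genes. These were 12 ligands, 22 receptors and Tnfsf13os, an antisense noncoding RNA at the Tnfsf13 locus that the symbol rule takes in. The genes not kept were Cd40lg and Tnfrsf8, each well above background on 1 of the 32 arrays, Tnfsf11 on 2 and Tnfsf4 on 0.

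TNF superfamily ligands are mostly trimeric membrane proteins, some of them shed, that cluster their receptors on the target cell. Receptors with a cytoplasmic death domain, such as Fas and Tnfrsf10b, can start apoptosis. Many receptors without one, decoys excepted, recruit TRAF adaptors and switch on NF-kappaB. In the lung, TNF itself is an early cytokine of injury, and other members serve the survival and co-stimulation of lymphocytes.

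Newborn wild-type C57Bl/6J mice of both sexes breathed 21% O2 or 85% O2, received antimiR-34a or a scrambled antimiR (antagomiRs in the labels), and were studied at P5 or P14 (the protocol in the labels adds a fraction of a day to each age). The 85% O2 atmosphere is a model of the arrested alveolarization of bronchopulmonary dysplasia, and antimiR-34a is an oligonucleotide given to block miR-34a-5p throughout the body. The 8 combinations held 4 mice each, with 1 array per mouse. Nothing in the labels ties mice to litters, so p-values measure the spread between these mice. Each of the 4 slides held mice of a single age and oxygen level, so that oxygen, and also age, cannot be told apart from slide, and the antimiRs lay on different rows of each slide.

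Levels are log2 of the background-subtracted spot intensity minus the 75th percentile of the array, so a level of 0 is that percentile, and levels of different genes are not compared. All 6 lung epithelium markers, all 6 endothelium markers and all 6 mesenchyme markers of the lists used here were well above background on every array. Between 33607 and 40776 probes per array were well above background, and at P14 the number followed oxygen level and slide. It was 39009 to 40776 in 21% O2 and 34603 to 36475 in 85% O2 at P14. At P5 it was 35937 to 38719 and 33607 to 36778. The part of this in the counts of arrays well above background given below was not tested. Markers of muscle set some arrays apart from their group. The mean level of 8 skeletal muscle genes was 2.11 in scrambled replicate 4 at P5 in 21% O2 and -3.35 to -2.47 in the other 3 mice. At P14 in 21% O2 it was -1.05 in scrambled replicate 1 (others -2.52 to -2.26), and the mean of 8 heart muscle genes was 3.75 in antimiR-34a replicate 4 (others 0.25 to 2.18). Precision rests on 4 mice a group.

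The sequence of the microRNA that antimiR-34a was made to block is shown because the probes were searched for its seed match. It lies at chr4:150068473-150068494 on the plus strand (GRCm38.p6, RefSeq), and its seed, bases 2 to 8, is in capitals.
mmu-miR-34a-5p: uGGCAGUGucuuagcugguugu
The complement of the seed was found in 0 of the 45 kept probes, against 250 of 55681 probes (0.449%) on the whole array. A probe of 60 bases covers little of a transcript, so that nothing follows about sites elsewhere in these genes.

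Promoters are shown for 4 genes that differed between oxygen levels, as an example of where the letters of inflammatory and stress factors occur. RefSeq promoters (GRCm38.p6) were at hand for 27 of the 35 kept genes, with 31 start sites, and the 250 bases before each start were searched on both strands for the NF-kappaB consensus, the AP-1 motif TGANTCA and the p53 half-site. Capitals mark the matches. The Fas promoter (chr19:34290409-34290658, plus strand) held an AP-1 match 211 bases before the start, the second Tnfrsf9 start (chr4:150927749-150927998, plus) overlapping NF-kappaB matches 43 and 42 bases and an AP-1 match 15 bases before, the second Tnfsf13b start (chr8:10006383-10006632, plus) an AP-1 match and, 141 bases before, a p53 half-site, and the Ltb promoter (chr17:35194257-35194506, plus) an NF-kappaB match 87 bases before.
Fas: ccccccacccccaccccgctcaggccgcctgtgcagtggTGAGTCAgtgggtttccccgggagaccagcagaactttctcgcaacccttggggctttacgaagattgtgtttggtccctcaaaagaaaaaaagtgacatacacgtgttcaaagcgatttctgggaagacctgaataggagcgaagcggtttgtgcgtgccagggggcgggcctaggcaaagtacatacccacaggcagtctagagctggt
Tnfrsf9: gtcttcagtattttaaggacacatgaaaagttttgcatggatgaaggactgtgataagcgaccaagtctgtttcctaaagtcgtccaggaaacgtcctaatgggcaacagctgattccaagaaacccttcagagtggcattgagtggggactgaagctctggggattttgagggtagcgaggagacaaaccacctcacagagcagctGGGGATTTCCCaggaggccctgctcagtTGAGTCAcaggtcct
Tnfsf13b: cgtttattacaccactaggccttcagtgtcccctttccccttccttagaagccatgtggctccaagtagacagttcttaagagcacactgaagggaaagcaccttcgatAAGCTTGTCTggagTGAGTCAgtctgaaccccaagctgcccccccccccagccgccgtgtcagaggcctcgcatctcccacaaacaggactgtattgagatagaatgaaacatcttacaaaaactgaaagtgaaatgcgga
Ltb: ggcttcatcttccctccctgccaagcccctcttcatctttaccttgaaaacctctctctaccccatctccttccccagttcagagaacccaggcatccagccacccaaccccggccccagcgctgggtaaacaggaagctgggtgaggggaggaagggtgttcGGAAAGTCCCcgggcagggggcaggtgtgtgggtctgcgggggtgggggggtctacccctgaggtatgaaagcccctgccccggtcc
NF-kappaB letters were found before 3 of the 31 member starts and in 7.25% of all 32851 promoters, AP-1 letters before 4 and in 6.75%, and the p53 half-site before 2 and in 7.13%. The other matches were in Tnfrsf25 (NF-kappaB), Tnfsf14 (AP-1) and Fasl (p53 half-site). A match is a run of letters and not a binding site.

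The first question was how the family differed between 85% O2 and 21% O2 in mice given the scrambled antimiR. At P5, 18 of 41 tested member probes were called different (limma, Benjamini-Hochberg adjusted p under 0.05 over all probes), 14 higher and 4 lower in 85% O2, from 17 of 32 genes. Over all 35982 tested probes, 43.9% were called, the same share as among the members. At P14, 30 of 45 member probes were called, 17 higher and 13 lower, from 25 of 35 genes, beside 60.9% of 38455 probes. The median log2 difference of the members was 0.15 at P5 and 0.14 at P14, and of all probes -0.07 at either age. The family as a whole was thus called about as often as other probes, and its members moved in opposite directions. The P14 counts hold the called probes of Tnfsf18 and Tnfrsf17, the called dimmer probes of Tnfrsf9 and Tnfrsf23 and the uncalled probe of Fasl, which were well above background on all 4 arrays only of groups at 1 oxygen level, so that they could enter the test only by being high there.

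**Figure D1:**
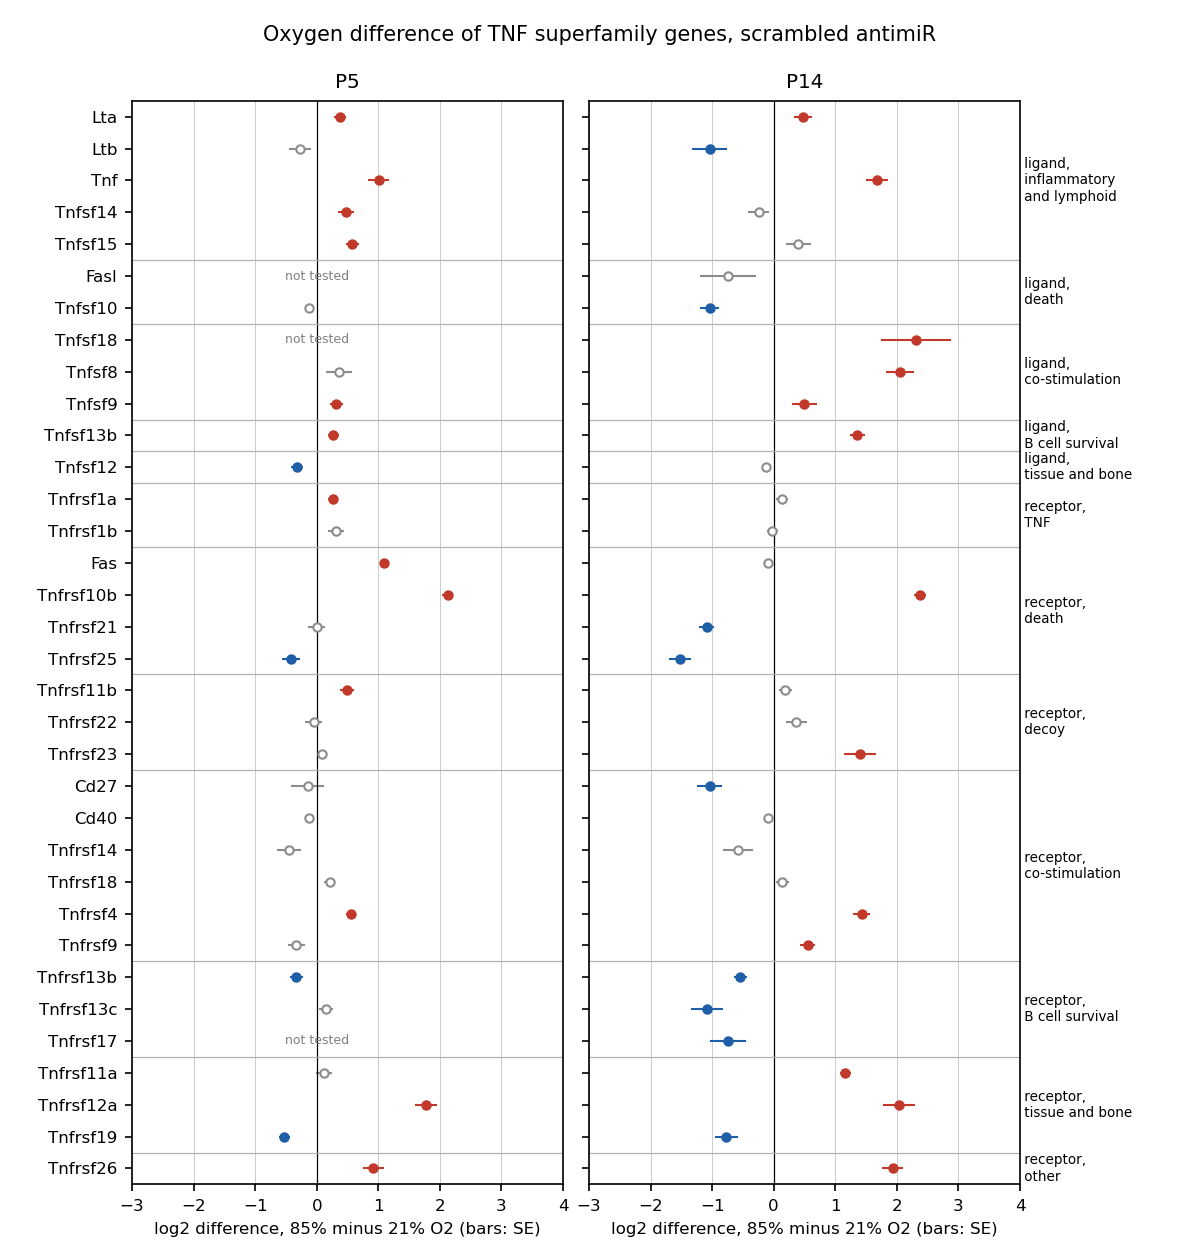
Log2 difference of 85% minus 21% O2 in scrambled antimiR mice at P5 (left) and P14 (right) for 34 family genes on their brightest tested probe, grouped by role, with bars for the standard error (4 mice a group). Filled red points are called higher, filled blue points called lower and open grey points not called (limma, adjusted p under 0.05); Tnfrsf10b, Tnfrsf12a and Tnf lie far to the right at either age, and the B cell survival receptors lie to the left at P14.

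Among the inflammatory and lymphoid ligands, Tnf, Lta, Tnfsf14 and Tnfsf15 were higher in 85% O2 at P5, and at P14 Tnf and Lta were higher and Ltb lower. Tnf, the founding ligand and a macrophage cytokine, had log2 levels of -3.67, -3.70, -3.97 and -3.74 in 21% O2 at P5 and -3.23, -2.53, -2.98 and -2.29 in 85% O2. At P14 the levels of Tnf were -4.78, -4.29, -4.54 and -4.16 in 21% O2 and -2.40, -2.93, -2.89 and -2.86 in 85% O2. The groups did not overlap at either age. The difference for Tnf was 1.01 ± 0.17 (SE; 2.02-fold, adjusted p = 0.000347, limma) at P5 and 1.68 ± 0.18 (3.19-fold, adjusted p = 2.9e-06) at P14. Its oxygen difference was larger at P14 by 0.66 ± 0.25 (adjusted p = 0.0388), a call lost without any 1 of 8 of the 16 arrays (adjusted p up to 0.102, without P5 85% O2 scrambled replicate 1).

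Ltb, which with Lta forms the lymphotoxin heterotrimer of lymphoid tissue, had levels of 2.62, 2.17, 2.41 and 2.06 in 21% O2 at P14 and 0.72, 0.92, 1.47 and 2.00 in 85% O2. All mice in 85% O2 lay below all mice in 21% O2, although replicate 4 came close. Ltb fell by 1.04 on the log2 scale (SE 0.29, adjusted p = 0.00765), while at P5 it differed by -0.27 ± 0.18 (adjusted p = 0.24). Lta, in contrast, rose by 0.38 ± 0.10 at P5 (adjusted p = 0.00543) and 0.48 ± 0.15 at P14 (adjusted p = 0.015). The P14 call of Lta was lost without 85% O2 replicate 4 (adjusted p = 0.0519). Tnfsf14 (LIGHT) and Tnfsf15 (TL1A), ligands that act on T cells, were higher at P5 by 0.47 ± 0.13 (adjusted p = 0.00988) and 0.58 ± 0.11 (adjusted p = 0.000568), and differed by -0.24 ± 0.17 (adjusted p = 0.245) and 0.40 ± 0.20 (adjusted p = 0.101) at P14.

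The receptors of TNF differed less. Tnfrsf1a, the death domain receptor found on most cells, was higher by 0.26 ± 0.08 at P5 (adjusted p = 0.0121) and differed by 0.14 ± 0.10 at P14 (adjusted p = 0.225) on its brightest probe, while its other probe rose by 0.56 ± 0.08 and 0.79 ± 0.08 (adjusted p = 4.46e-05 and 2.81e-06). Tnfrsf1b, the receptor of immune and endothelial cells, differed by 0.32 ± 0.13 (adjusted p = 0.0543) and -0.02 ± 0.09 (adjusted p = 0.832), and its P5 difference was called under 4 of 8 other settings (adjusted p = 0.0311 to 0.0476).

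The death receptors moved apart. Tnfrsf10b, the only mouse death receptor for TRAIL and a known p53 target, was 4.39-fold higher in 85% O2 at P5 and 5.22-fold higher at P14. Its levels in 21% O2 were 0.04, 0.18, 0.18 and 0.05 at P5 and 0.10, 0.07, 0.03 and 0.40 at P14. In 85% O2 the levels of Tnfrsf10b were 2.38, 2.09, 2.32 and 2.19 at P5 and 2.69, 2.53, 2.50 and 2.42 at P14. Every mouse in 85% O2 was well above every mouse in 21% O2. The log2 difference was 2.13 ± 0.09 at P5 (adjusted p = 1.33e-09) and 2.38 ± 0.10 at P14 (adjusted p = 8.22e-10), and the ages did not pass the test of a difference between them (0.25 ± 0.14, adjusted p = 0.152).

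Fas, the receptor of Fas ligand, was higher in 85% O2 at P5, and its oxygen difference changed with age. Its levels at P5 were 1.37, 1.49, 1.21 and 1.23 in 21% O2 and 2.38, 2.47, 2.46 and 2.36 in 85% O2. At P14 they were 2.41, 2.35, 2.47 and 2.45 in 21% O2 and 2.31, 2.28, 2.33 and 2.42 in 85% O2. The P5 mice in 85% O2 thus stood at the level that Fas had at P14 in either atmosphere. The oxygen difference was 1.09 ± 0.07 (2.13-fold, adjusted p = 6.96e-08) at P5 and -0.09 ± 0.06 (adjusted p = 0.213) at P14, a change between ages of -1.18 ± 0.09 (adjusted p = 4.07e-10). With quantile normalization the P14 difference of Fas was called, at -0.19 (adjusted p = 0.0162). In 21% O2, Fas rose by 1.10 ± 0.06 (2.14-fold, adjusted p = 6.39e-13) from P5 to P14. The comparisons of oxygen and of ages share the arrays of 21% O2.

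Tnfrsf25 (DR3), the receptor of Tnfsf15, and Tnfrsf21 (DR6), which also carries a death domain, were lower in 85% O2. Levels of Tnfrsf25 at P14 were 1.69, 1.49, 1.77 and 1.51 in 21% O2 and 0.04, -0.09, 0.43 and 0.02 in 85% O2. Levels of Tnfrsf21 were -0.62, -0.57, -0.69 and -0.75 in 21% O2 and -1.52, -1.54, -1.80 and -2.13 in 85% O2. The groups were apart for either gene. Tnfrsf25 fell by 1.52 (SE 0.18, adjusted p = 9.47e-06) and Tnfrsf21 fell by 1.09 (SE 0.12, adjusted p = 4.76e-06). At P5 Tnfrsf25 fell by 0.42 (SE 0.14, adjusted p = 0.0221), which leaving out single arrays brought to an adjusted p of up to 0.0734 (without 85% O2 replicate 4), and Tnfrsf21 differed by 0.00 ± 0.14 (adjusted p = 0.983).

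Of the death ligands, Tnfsf10 was lower at P14. Tnfsf10 (TRAIL) had levels of 2.86, 2.88, 2.95 and 2.78 in 21% O2 at P14 and 1.72, 1.67, 1.88 and 2.04 in 85% O2, with no overlap. It fell by 1.04 (SE 0.15, 2.06-fold, adjusted p = 6.22e-05) at P14 and differed by -0.12 ± 0.07 (adjusted p = 0.15) at P5, and the change between ages was -0.92 ± 0.17 (adjusted p = 0.000134). Thus at P14 the TRAIL receptor Tnfrsf10b was higher and the ligand lower. Fasl, a ligand of cytotoxic lymphocytes, was well above background on all 4 arrays only in scrambled mice in 21% O2 at P14 and on 1 of 4 in 85% O2. Its P14 difference was -0.74 ± 0.46 (adjusted p = 0.176), and it was not tested at P5.

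Of a cluster of TRAIL receptor relatives on chromosome 7, Tnfrsf23 and Tnfrsf26 rose at P14, and Tnfrsf22 rose on its dimmer probe. In the array annotation (mm9), the probe of Tnfrsf26 lies at chr7:150793990-150794049, the brightest of Tnfrsf22 at chr7:150823394-150823453 and that of Tnfrsf23 at chr7:150851714-150851773, all on the minus strand. Tnfrsf22 and Tnfrsf23 are decoy receptors that bind TRAIL without a death domain, and no role is given here for Tnfrsf26. These genes are close relatives, and cross-hybridization between their probes was not tested.

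Tnfrsf26 had levels of -4.17, -4.57, -4.52 and -4.06 in 21% O2 and -3.83, -3.34, -3.13 and -3.32 in 85% O2 at P5. At P14 its levels were -3.63, -3.44, -3.61 and -4.11 in 21% O2 and -1.38, -1.64, -2.10 and -1.97 in 85% O2. Tnfrsf26 thus lay higher in 85% O2 in every mouse at either age, by 0.92 ± 0.17 at P5 (adjusted p = 0.000555) and by 1.93 ± 0.17 at P14 (3.80-fold, adjusted p = 5.63e-07). Tnfrsf23 had levels of -0.99, -0.98, -0.89 and -1.22 in 21% O2 at P14 and 0.65, 0.64, 0.19 and 0.03 in 85% O2, and it rose by 1.40 ± 0.26 (2.64-fold, adjusted p = 0.000425). At P5 Tnfrsf23 differed by 0.08 ± 0.08 (adjusted p = 0.431). The oxygen difference was larger at P14 for Tnfrsf23 by 1.32 ± 0.28 (adjusted p = 0.000597) and for Tnfrsf26 by 1.01 ± 0.24 (adjusted p = 0.00188).

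The brightest probe of Tnfrsf22 missed the test as fitted here and passed it under 6 of 8 other settings (0.37 to 0.67, adjusted p = 0.00367 to 0.0475). As fitted here, it differed by 0.37 ± 0.17 at P14 (adjusted p = 0.0674), with levels of -3.66, -3.83, -3.98 and -3.87 in 21% O2 and -3.56, -3.32, -3.46 and -3.50 in 85% O2. The other Tnfrsf22 probe read -4.43, -4.77, -4.36 and -4.92 in 21% O2 and -3.23, -3.13, -3.35 and -3.24 in 85% O2, a rise of 1.38 ± 0.19 (adjusted p = 2.76e-05). Tnfrsf11b (osteoprotegerin), the decoy for RANK ligand, rose by 0.49 ± 0.11 at P5 (adjusted p = 0.00203) and differed by 0.19 ± 0.10 at P14 (adjusted p = 0.102).

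**Figure D2:**
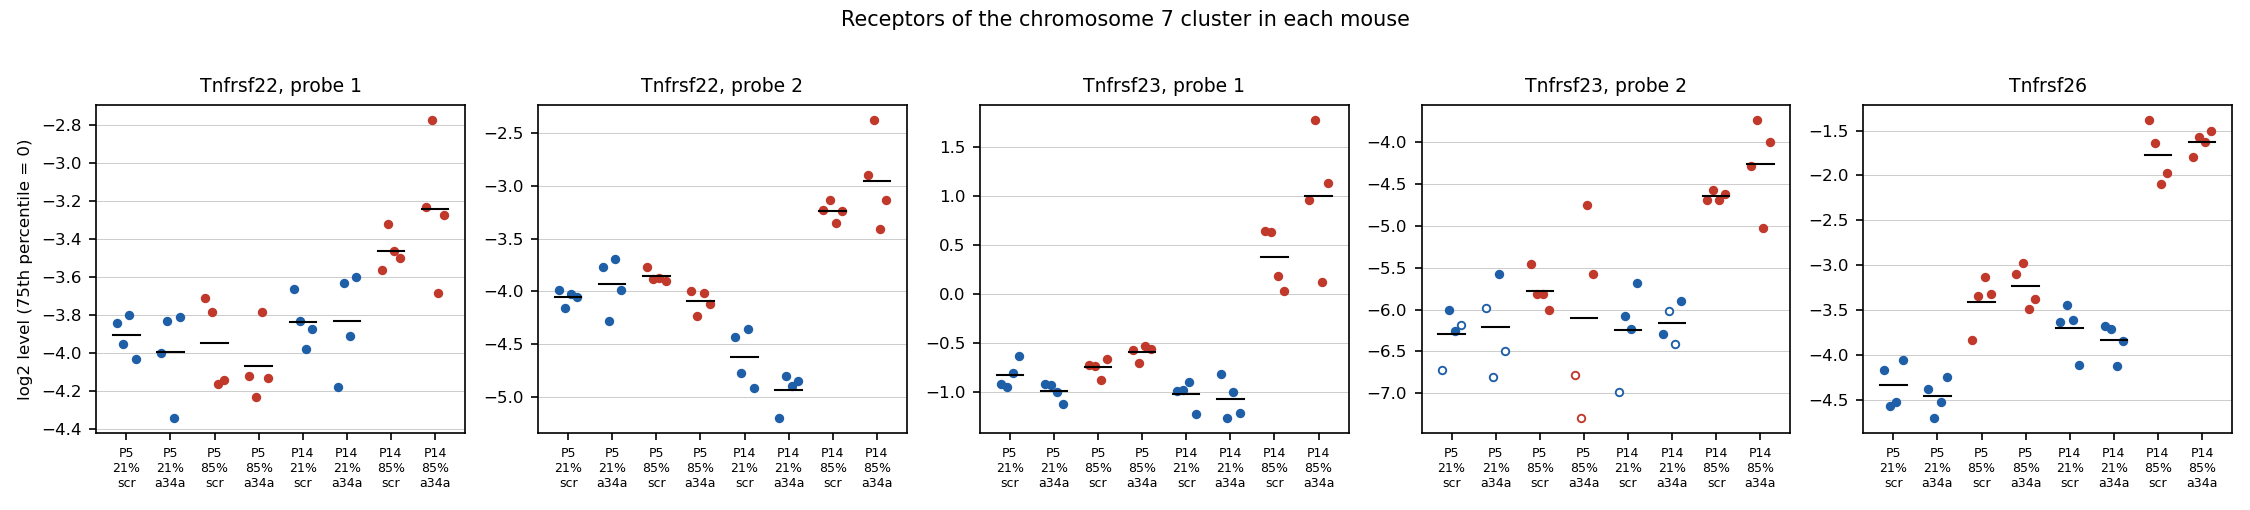
Log2 level of each of the 5 probes of Tnfrsf22, Tnfrsf23 and Tnfrsf26 in each mouse (vertical axes, 75th percentile of the array = 0, own scale per panel) by age, oxygen level and antimiR (scr, scrambled; a34a, antimiR-34a). Blue points are 21% O2, red points 85% O2, open points not well above background and lines group means of 4 mice; the P14 groups in 85% O2 have the highest mean in every panel.

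The receptor Tnfrsf12a (Fn14), the TWEAK receptor, which is induced in injured tissue, rose together with Tnfrsf10b and Tnf at either age. Its levels were 1.49, 1.28, 1.28 and 1.37 in 21% O2 and 2.69, 3.57, 2.96 and 3.34 in 85% O2 at P5. At P14 levels of Tnfrsf12a were 1.91, 2.06, 1.72 and 2.18 in 21% O2 and 4.26, 4.12, 3.76 and 3.90 in 85% O2. No mouse of one atmosphere reached the range of the other. Tnfrsf12a rose by 1.78 ± 0.18 at P5 (3.44-fold, adjusted p = 4.12e-06) and by 2.04 ± 0.26 at P14 (4.12-fold, adjusted p = 1.69e-05). Tnfsf12 (TWEAK), its ligand, fell by 0.32 (SE 0.09, adjusted p = 0.0146) at P5 and differed by -0.12 ± 0.07 (adjusted p = 0.156) at P14 on its brightest probe, while the other probe fell by 0.66 (SE 0.09, adjusted p = 2.54e-05) at P14.

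Tnfrsf11a (RANK), the receptor for RANK ligand on osteoclast precursors, had levels of 0.06, -0.07, 0.12 and 0.06 in 21% O2 at P14 and 1.02, 1.07, 1.31 and 1.43 in 85% O2. These groups were far apart, with a rise of 1.16 ± 0.09 (2.24-fold, adjusted p = 2.47e-07). At P5 Tnfrsf11a differed by 0.11 ± 0.13 (adjusted p = 0.536), and the ages differed by 1.06 ± 0.16 (adjusted p = 1.69e-05). Tnfrsf19 (TROY), a receptor of epithelial and neural progenitors, fell by 0.53 (SE 0.09, adjusted p = 0.000299) at P5 and fell by 0.77 (SE 0.19, adjusted p = 0.00294) at P14, and its dimmer probe did not pass the test at either age.

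Of the 5 co-stimulation ligands, which sustain activated lymphocytes, Cd40lg and Tnfsf4 were not kept, and Tnfsf8, Tnfsf9 and Tnfsf18 were measured at P14. Tnfsf8 (CD30 ligand) had levels of -5.04, -4.93, -5.04 and -4.65 in 21% O2 and -3.22, -3.20, -2.34 and -2.70 in 85% O2, a rise of 2.05 ± 0.23 (4.14-fold, adjusted p = 4.5e-06). Tnfsf18 (GITR ligand) had levels of -7.03, -8.13, -7.99 and -7.03 in 21% O2, where it was not well above background in any mouse, and -5.79, -5.36, -4.70 and -5.09 in 85% O2, where it was in all 4. The bound for Tnfsf18 was at least 2.33-fold higher, given as a description because the probe entered the test only through the 85% O2 groups, and with normexp its call was lost (adjusted p = 0.156). For such a bound, each dim value was raised to the faintest signal well above background on its array where it lay under it. Tnfsf9 (4-1BB ligand) was higher by 0.50 ± 0.20 (adjusted p = 0.0387), and by 0.32 ± 0.10 at P5 (adjusted p = 0.014). Its P14 call was lost without any 1 of 7 of the 8 arrays (adjusted p up to 0.113, without 21% O2 replicate 4). The same call was lost without a filter on dim probes and with the replicate number as a block.

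At P5, Tnfsf8 differed by 0.36 ± 0.21 (adjusted p = 0.17), and it was well above background on 2 of 4 arrays in 21% O2. Its oxygen difference grew by 1.69 ± 0.32 between the ages (adjusted p = 0.000161). Tnfsf18 was well above background on 1 of the 16 arrays at P5 and was not tested there.

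Of the 7 co-stimulation receptors, Tnfrsf8 was not kept, and Tnfrsf4 and Tnfrsf9 rose and Cd27 fell at P14. Tnfrsf4 (OX40) had levels of -0.38, -0.27, -0.23 and -0.22 in 21% O2 and 1.02, 1.11, 1.18 and 1.32 in 85% O2 at P14, and at P5 0.09, 0.15, 0.18 and 0.20 against 0.62, 0.80, 0.63 and 0.75. The groups were apart at either age, with rises of 1.43 ± 0.14 (2.70-fold, adjusted p = 1.95e-06) and 0.55 ± 0.07 (adjusted p = 2.74e-05). Tnfrsf9 (4-1BB) rose by 0.55 ± 0.12 at P14 (adjusted p = 0.00158; 0.0517 with normexp and 0.0509 with the methods' test) and differed by -0.33 ± 0.14 at P5 (adjusted p = 0.0649). Cd27, a receptor of T cells and memory B cells, fell by 1.04 (SE 0.20, adjusted p = 0.000511) at P14, and with normexp it differed by -0.15 (adjusted p = 0.423). The dimmer probe of Tnfrsf9 was well above background on 1 of 4 arrays in 21% O2 and 4 of 4 in 85% O2. Cd40, Tnfrsf14 and Tnfrsf18 were not called at either age on their brightest probe.

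The B cell survival genes split by side. Tnfsf13b (BAFF), the survival ligand made by myeloid and stromal cells, had levels of -2.62, -2.52, -2.64 and -2.60 in 21% O2 at P14 and -1.15, -1.10, -1.17 and -1.51 in 85% O2. Its receptor Tnfrsf13c (BAFF receptor) had levels of -0.23, -0.28, -0.06 and -0.22 in 21% O2 and -1.41, -1.99, -1.19 and -0.50 in 85% O2. The groups of each gene did not overlap, and they lay in opposite order. Tnfsf13b rose by 1.36 ± 0.12 (2.56-fold, adjusted p = 5.73e-07), and Tnfrsf13c fell by 1.08 (SE 0.26, 2.11-fold, adjusted p = 0.00268).

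Tnfrsf13b (TACI), another receptor of this group, fell by 0.54 (SE 0.10, adjusted p = 0.00046). Tnfrsf17 (BCMA, the plasma cell receptor) was well above background on 4 of 4 arrays in 21% O2 and 1 of 4 in 85% O2, with a difference of -0.74 ± 0.29 that became 0.15 with normexp. It entered the test only through the 21% O2 groups, so its difference is a description. All 8 B cell markers were lower in 85% O2 at P14, and their mean level was -0.51 to -0.16 in 21% O2 and -2.16 to -1.62 in 85% O2. Of 8 T cell markers, 6 were lower, with means of 0.00 to 0.30 and -1.04 to -0.15, beside calls in either direction for 60.9% of all probes. Of 5 tested NK cell markers, 1 was lower, with means over all 6 of -3.25 to -2.98 and -4.60 to -3.57. Of 8 thymus genes, 6 to 7 were well above background in 21% O2 and 3 in 85% O2, with means of -4.84 to -3.97 and -6.43 to -5.76, the latter resting mostly on background values. Fewer B or T cells and less RNA per cell cannot be told apart in whole-lung RNA, and the part of these B cell, T cell and thymus changes in the values of Ltb, Cd27, Tnfrsf13b, Tnfrsf13c and Tnfrsf17 was not tested.

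At P5, 0 of the 8 B cell markers were called in scrambled mice (limma), with a mean level of -1.58 to -1.37 in 21% O2 and -1.54 to -1.22 in 85% O2. Tnfrsf13c then differed by 0.15 ± 0.11 (adjusted p = 0.314), Tnfrsf13b fell by 0.33 (SE 0.10, adjusted p = 0.0153) and Tnfsf13b was higher by 0.27 ± 0.09 (adjusted p = 0.0281), calls that were lost without 1 of the arrays (Tnfrsf13b, without 85% O2 replicate 3, adjusted p = 0.0508) or without any 1 of 5 (Tnfsf13b, adjusted p up to 0.086, without 85% O2 replicate 3). The oxygen difference changed between ages by -1.22 ± 0.29 for Tnfrsf13c (adjusted p = 0.00164) and by 1.09 ± 0.15 for Tnfsf13b (adjusted p = 4e-06).

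Macrophage markers moved the other way. Of 8 macrophage markers, 8 were higher in 85% O2 at P5 and 7 at P14, and their mean level at P14 was 1.74 to 1.95 in 21% O2 and 2.74 to 3.17 in 85% O2. Of 5 tested mast cell markers, 4 were higher at P14 and Kit was lower. Of 8 neutrophil markers, 0 were higher and 1 lower at P5, against 3 higher and 1 lower for P14. Of 8 heart muscle genes, 6 were lower at P5 and 4 at P14, and of 8 red blood cell genes, 4 and 5, beside calls for 43.9% and 60.9% of all probes. Of 6 mesenchyme markers, 5 were lower at P5 and 4 at P14, with means of 4.68 to 4.82 in 21% O2 and 4.15 to 4.33 in 85% O2 at P5, and of 5.22 to 5.29 and 4.57 to 4.66 at P14. The part of these changes in the values of the family, among them Tnf, Tnfsf13b and Tnfsf8, was not tested.

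**Figure D3:**
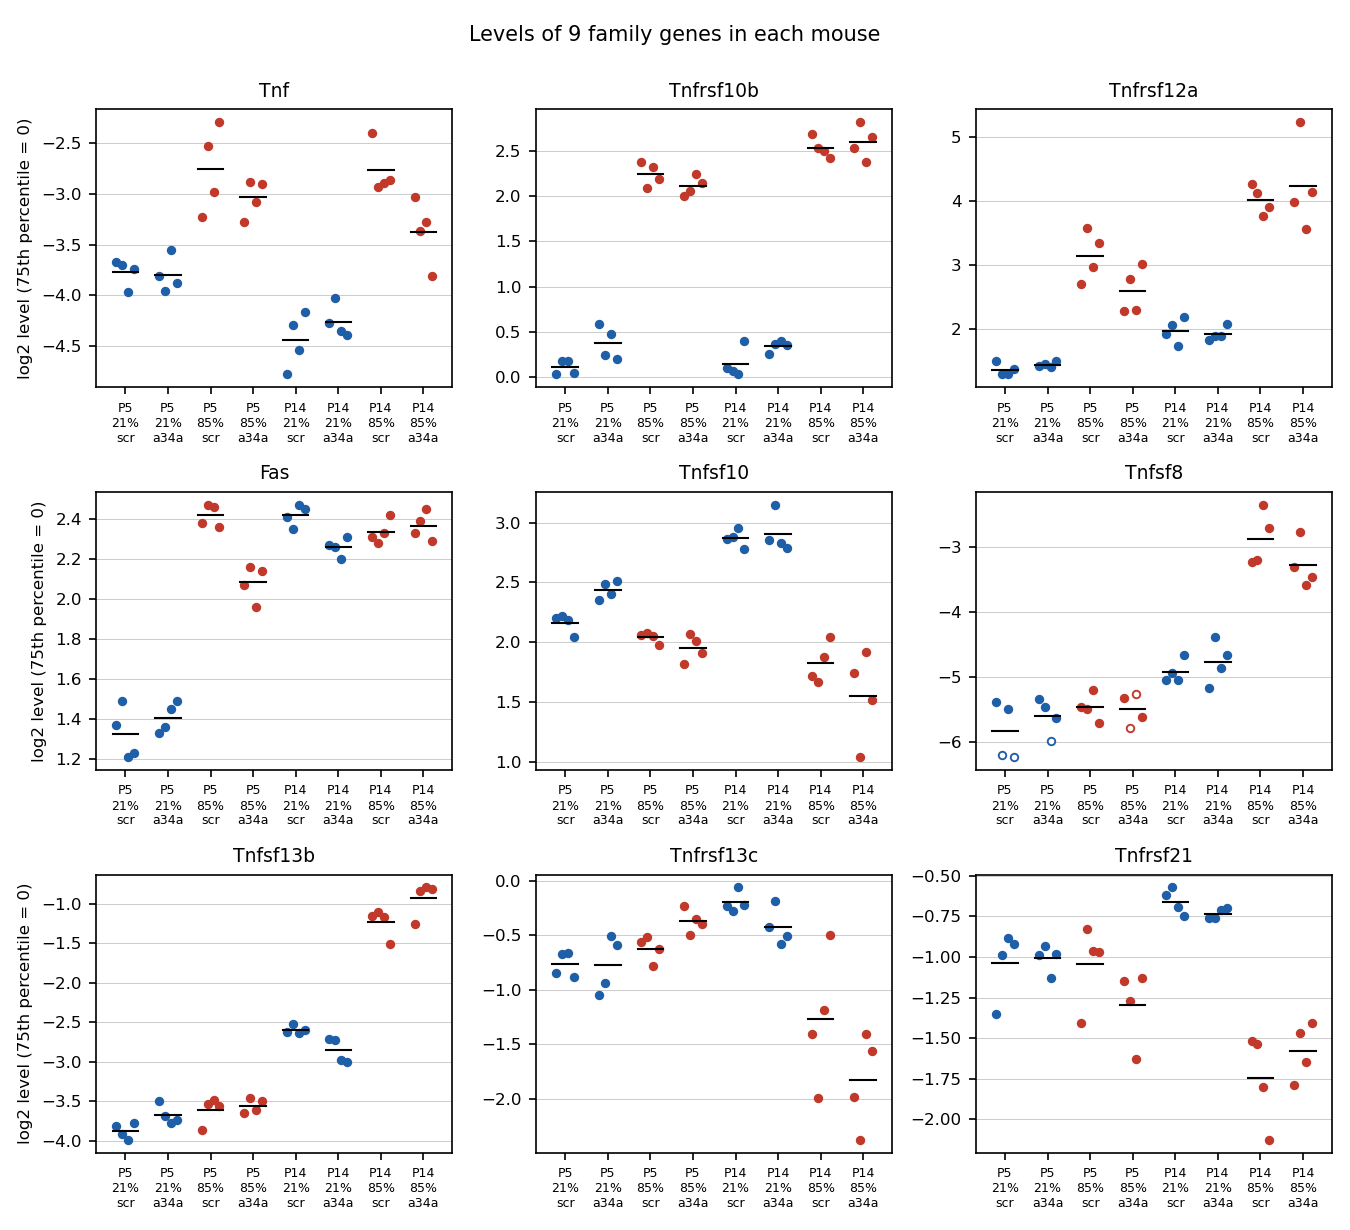
Log2 level of 9 family genes in each mouse (vertical axes, 75th percentile of the array = 0, own scale per panel) by age, oxygen level and antimiR (scr, scrambled; a34a, antimiR-34a). Blue points are 21% O2, red points 85% O2, open points not well above background and lines group means of 4 mice; Tnf, Tnfrsf10b and Tnfrsf12a are apart at either age, Fas at P5, and Tnfsf8, Tnfsf10, Tnfsf13b, Tnfrsf13c and Tnfrsf21 at P14.

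The difference of the oxygen effect between ages was called for 19 of 45 member probes, 10 more positive and 9 more negative at P14, from 18 genes, beside 40.8% of all 39162 probes. The count holds Tnfsf18, which among scrambled mice was well above background on all 4 arrays only in 85% O2 at P14. With quantile normalization, 12 of 19 were more positive. Besides the genes above, Tnfrsf9 (0.88 ± 0.19, adjusted p = 0.000576), Tnfrsf4 (0.89 ± 0.16, adjusted p = 0.000104) and the dimmer probe of Tnfrsf22 (1.19 ± 0.22, adjusted p = 0.000134) had a more positive oxygen difference at P14. It was more negative for Tnfrsf25 (-1.10 ± 0.23, adjusted p = 0.000533), Tnfrsf21 (-1.09 ± 0.19, adjusted p = 6.74e-05), Cd27 (-0.89 ± 0.34, adjusted p = 0.0399), Tnfsf14 (-0.71 ± 0.22, adjusted p = 0.0119) and the dimmer probe of Tnfsf12 (-0.64 ± 0.14, adjusted p = 0.000595). The call of Tnfsf14 was lost with normexp. The call of Cd27 was lost with 4 of the other settings and without any 1 of 10 of the 16 arrays (adjusted p up to 0.0951, without P5 85% O2 replicate 4). Ages and oxygen levels were on different slides.

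Between P5 and P14 in 21% O2, 27 of 45 member probes were called in scrambled mice, 22 higher and 5 lower at P14, from 23 genes, beside 51.4% of all probes. Besides Fas, genes well above background on every array of both groups that rose on the brightest probe included Tnfsf13b (1.28 ± 0.11, 2.43-fold, adjusted p = 4.67e-10), Cd27 (0.85 ± 0.24, adjusted p = 0.00511), Tnfsf14 (0.73 ± 0.16, adjusted p = 0.00033) and Tnfsf10 (0.70 ± 0.12, adjusted p = 2.66e-05). Tnfrsf17 was well above background on 0 of 4 arrays at P5 and 4 of 4 at P14, a bound of at least 1.96-fold, and entered the test only through P14 groups in 21% O2. Tnfsf8, on 2 of 4 arrays well above background at P5 and 4 of 4 at P14, differed by 0.91 and lost its call with normexp (0.28, adjusted p = 0.151) and the methods' test (adjusted p = 0.052). Tnf fell by 0.67 (SE 0.18, adjusted p = 0.00281; -0.34 and 0.0502 with normexp), Tnfrsf9 fell by 0.76 (SE 0.13, adjusted p = 3.37e-05), Tnfrsf4 fell by 0.43 (SE 0.11, adjusted p = 0.00256) and Tnfsf9 fell by 0.45 (SE 0.16, adjusted p = 0.02; up to 0.0884 without P14 replicate 4), while Tnfrsf10b differed by 0.04 ± 0.10 (adjusted p = 0.756). All 8 B cell markers and 7 of 8 T cell markers were higher at P14, and 6 to 7 of 8 thymus genes were well above background there, against 3 to 4 at P5. The fifth fall was on the dimmer probe of Tnfrsf22 (-0.57 ± 0.15, adjusted p = 0.00339). Smaller calls on the brightest probe of the other genes lay between 0.29 and 0.63, all higher at P14.

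The genes that carry the signal onward were described from fixed lists. Of 15 tested NF-kappaB core genes, 14 were higher in 85% O2 at P5, and at P14 12 were higher and 1 lower, beside calls in either direction for 43.9% and 60.9% of all probes. Relb (1.17 ± 0.10 and 1.30 ± 0.10, adjusted p = 1.26e-06 and 1.21e-07) and Nfkb2 (0.96 ± 0.10 and 1.06 ± 0.10, adjusted p = 7.77e-06 and 1.49e-06), the subunits of the noncanonical pathway, and Tnfaip3, an inhibitor that NF-kappaB induces (0.77 ± 0.09 and 1.10 ± 0.11, adjusted p = 8.85e-06 and 2.68e-06), rose at P5 and P14. Nfkb1 was the exception, with 0.21 ± 0.08 at P5 (adjusted p = 0.0419) and a fall by 0.65 (SE 0.09, adjusted p = 3.73e-05) at P14. Of 15 NF-kappaB target genes, 15 were higher at P5, and at P14 12 were higher and Nfkbiz lower, beside the same 43.9% and 60.9%. The chemokine Ccl2, the most raised of them at P14, rose 7.29-fold at P5 and 26.0-fold at P14 (adjusted p = 7.6e-05 and 1.54e-07).

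Of 16 adaptors and death signalling genes, P5 had 6 higher and 2 lower in 85% O2, against 8 higher and 3 lower for P14, shares near the 43.9% and 60.9% of all probes. Mlkl, the executioner of necroptosis, rose by 1.61 ± 0.10 at P14 (adjusted p = 3.52e-08) and Bid, which links death receptors to mitochondria, by 1.00 ± 0.13 (adjusted p = 1.5e-05). Cflar, an inhibitor of caspase-8, rose by 0.36 ± 0.08 at P5 (adjusted p = 0.00302) and fell by 0.34 (SE 0.08, adjusted p = 0.0029) at P14. Of 4 genes of ligand shedding, 2 were higher at P5, and 3 were higher and Adam17, the TNF sheddase, lower at P14, beside 43.9% and 60.9% of all probes. The median log2 difference of the shedding genes was 0.21 and 0.29, beside -0.07 for all probes.

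Of 5 tested family genes whose symbols lie outside the rule, Eda2r, a receptor of ectodysplasin A2 and a known p53 target, was not well above background on any array in 21% O2 and was on all 4 in 85% O2. It was at least 8.59-fold higher at P5 and at least 13.9-fold higher at P14 in scrambled mice, and the probe entered the test only through 85% O2 groups. Ltbr, the lymphotoxin beta receptor, rose by 0.41 ± 0.07 at P14 (adjusted p = 0.000147), and Eda fell by 0.38 (SE 0.08, adjusted p = 0.00193) at P5 and fell by 0.36 (SE 0.11, adjusted p = 0.0135) at P14. Ngfr fell by 0.58 (SE 0.19, adjusted p = 0.0155) at P14, and Relt was not called.

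The second question was whether the family differed with antimiR-34a. In the mice given antimiR-34a, 21 of 41 member probes were called between oxygen levels at P5, 15 higher and 6 lower, beside 46.6% of all probes. At P14 it was 36 of 45, 23 higher and 13 lower, beside 65.5%. The 45 hold the probes of Tnfsf18 and Tnfrsf17, both called, that of Fasl, not called, and the dimmer probes of Tnfrsf9 and Tnfrsf23. Among the P14 groups these were well above background on all 4 arrays only at 1 oxygen level. They could thus enter the test only by being high there. Tnfrsf10b rose 3.31-fold and 4.75-fold, Tnfrsf12a 2.22-fold and 4.99-fold, Tnf 1.70-fold and 1.85-fold (adjusted p between 1.36e-09 and 0.0025). Fas rose by 0.67 ± 0.07 at P5 (adjusted p = 4.76e-06) and differed by 0.11 ± 0.06 at P14 (adjusted p = 0.123). Tnfsf10 fell by 0.48 (SE 0.07, adjusted p = 4.57e-05) at P5 and fell by 1.35 (SE 0.15, adjusted p = 5.73e-06) at P14. Some genes were called (limma) whose brightest probe was not called in scrambled mice of that age. Among them, Cd40 fell by 0.37 at P5 (adjusted p = 0.000103) and rose by 0.30 at P14 (adjusted p = 0.00111). Tnfrsf9 fell by 0.60 and Tnfrsf13c rose by 0.40 at P5 (adjusted p = 0.00238 and 0.00978). At P14 Tnfrsf1a rose by 0.33 and Tnfrsf1b by 0.35 (adjusted p = 0.00731 and 0.00416). These comparisons use other mice than those of the scrambled antimiR. In the antimiR-34a mice, 8 of 8 B cell markers, 8 of 8 thymus genes and 5 of 8 T cell markers were lower in 85% O2 at P14. At P5, 4 of the B cell markers were higher and 0 lower. Of 8 macrophage markers, 7 were higher at either age. The part of these changes in the values of the family was not tested.

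The oxygen difference itself was not called different between the antimiRs for any member, with 0 of 41 probes at P5 and 0 of 45 at P14 (limma; 8 and 12 had an unadjusted p under 0.05), beside 0.0556% and 0.0884% of all probes. The smallest adjusted p was 0.189 at P5, for Fas (-0.42, unadjusted p = 0.000973), and 0.107 at P14, for Cd40 (0.39, unadjusted p = 0.000791). Next at P5 came Tnfsf10 (-0.36, adjusted p = 0.225) and Cd40 (-0.24, adjusted p = 0.3), and at P14 Tnfrsf18 (0.59, adjusted p = 0.135) and Tnfsf13b (0.57, adjusted p = 0.178). These values do not show that the oxygen differences were alike.

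**Figure D4:**
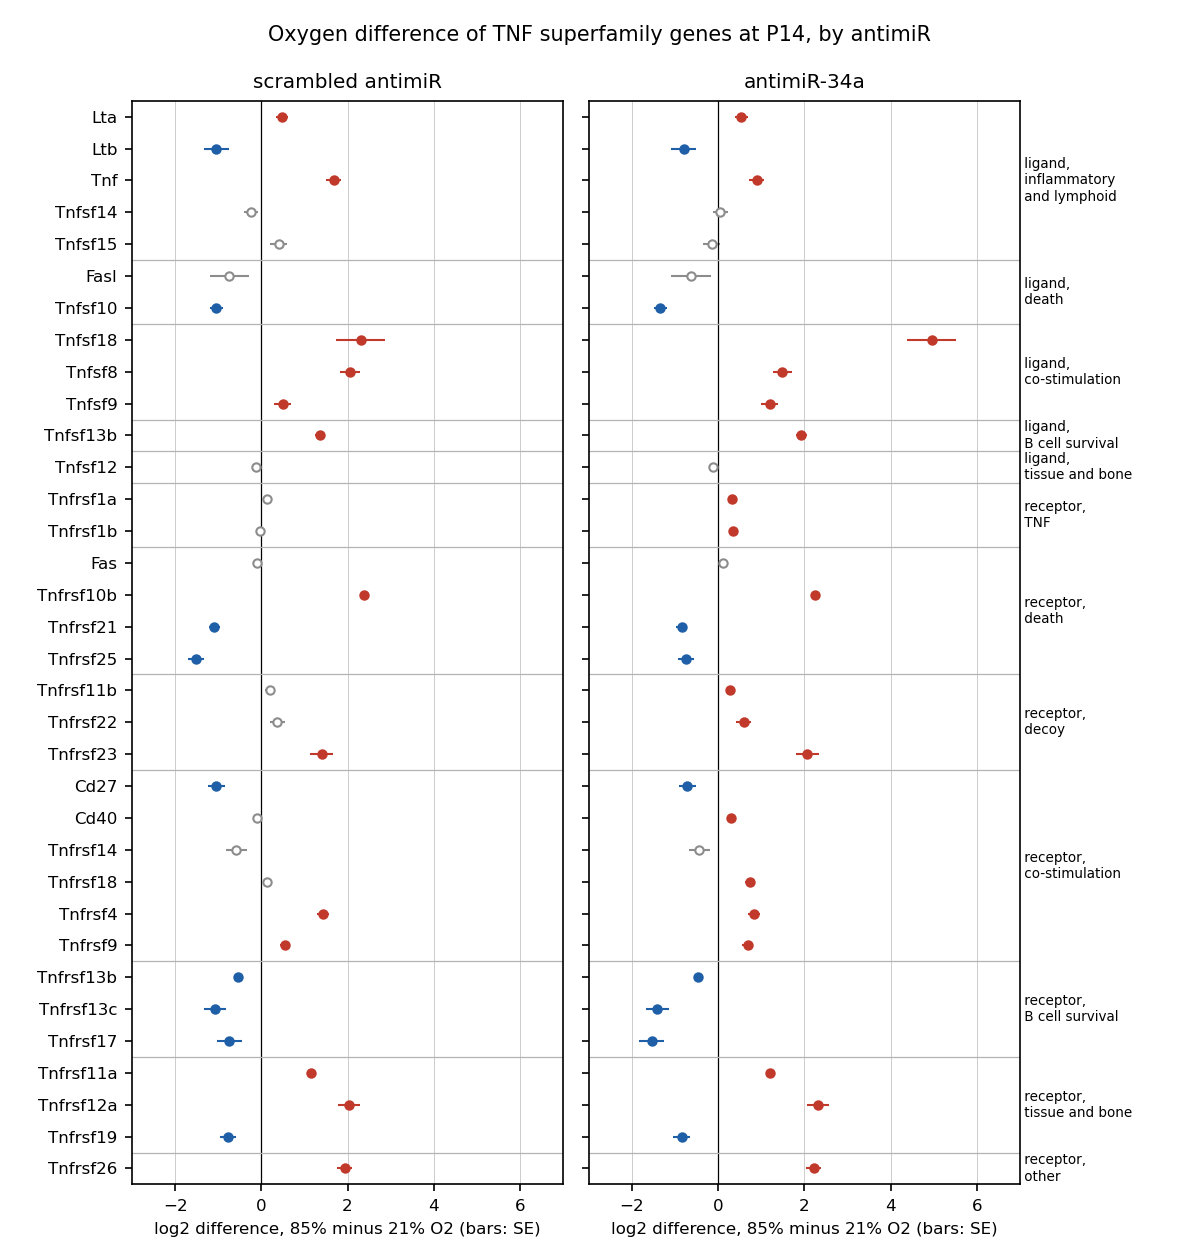
Log2 difference of 85% minus 21% O2 at P14 in mice given the scrambled antimiR (left) and antimiR-34a (right) for 34 family genes on their brightest probe, grouped by role, with bars for the standard error (4 mice a group). Filled red points are called higher, filled blue points called lower and open grey points not called (limma, adjusted p under 0.05); the fitted value of Tnfsf18 (4.95 at right) rests on groups in 21% O2 with no mouse well above background.

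Directly compared in 85% O2 at P14, antimiR-34a and the scrambled antimiR differed in 3 of 45 member probes, all higher with antimiR-34a, beside 2.67% of all probes. Of 8 neutrophil markers, 2 were lower with antimiR-34a in this comparison, with means of -1.34 to -0.39 against -0.69 to 0.41, and their part in these values was not tested. Tnfsf18 had levels of -5.79, -5.36, -4.70 and -5.09 with the scrambled antimiR and -3.62, -0.56, -3.87 and -3.09 with antimiR-34a. The groups did not overlap, and replicate 2 stood far above the other antimiR-34a mice. Tnfsf18 was higher by 2.45 ± 0.57 (5.47-fold, adjusted p = 0.0379), and without replicate 2 by 1.71 (adjusted p = 0.0158), while leaving out single other arrays brought the adjusted p to between 0.0576 and 0.0883 for 5 of the 8. Against 21% O2, where Tnfsf18 was not well above background in any mouse, it was at least 9.76-fold higher with antimiR-34a, again a description. That bound rests on a mean that holds replicate 2 (-0.56), and no bound without replicate 2 was computed.

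Tnfrsf25, which was lower in 85% O2, had levels of 0.04, -0.09, 0.43 and 0.02 with the scrambled antimiR and 0.93, 0.37, 1.39 and 1.21 with antimiR-34a. The groups overlapped, with antimiR-34a replicate 2 under scrambled replicate 3. Tnfrsf25 was higher by 0.88 ± 0.18 (1.84-fold, adjusted p = 0.0235), and the adjusted p was between 0.054 and 0.0694 without any 1 of 4 of the arrays. Cd40, the receptor of B cells and antigen-presenting cells for CD40 ligand, had levels of 1.75, 1.75, 1.61 and 1.65 with the scrambled antimiR and 1.92, 2.06, 2.05 and 2.04 with antimiR-34a. All antimiR-34a mice lay above all scrambled mice, by 0.33 ± 0.07 (1.26-fold, adjusted p = 0.0177).

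All 3 calls were lost when only the 8 arrays compared were fitted, with adjusted p of 0.201 for Tnfsf18, 0.175 for Tnfrsf25 and 0.157 for Cd40. Replicate 2 of the antimiR-34a mice in 85% O2 at P14 was the highest or the lowest of its group for 26 of 35 genes, as was scrambled replicate 4 in 21% O2 at P5, and over all arrays the number was 8 to 26. It was the highest for Tnfsf18, Tnfrsf12a and Tnfrsf23 and the lowest for Tnfsf10, Tnfrsf13c and Tnfrsf25. In marker means it was the lowest of its group for T cells (-1.08, others -0.57 to -0.39), B cells (-2.42, others -1.93 to -1.69) and NK cells (-4.73, others -3.78 to -2.83) and the highest for mesenchyme (5.19, others 4.56 to 4.94), and the part of these in its values was not tested.

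**Figure D5:**
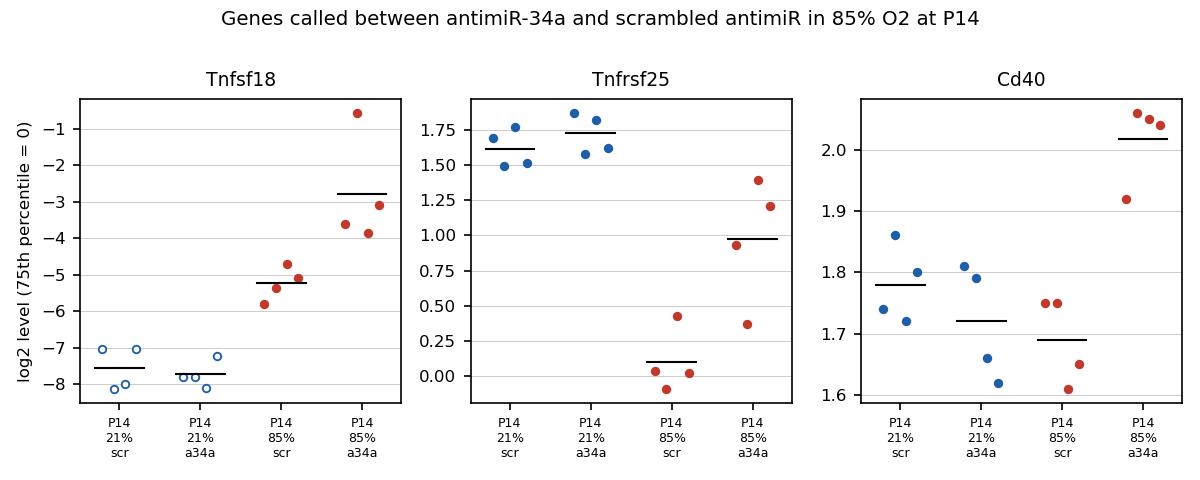
Log2 level of Tnfsf18, Tnfrsf25 and Cd40 in each mouse at P14 (vertical axes, 75th percentile of the array = 0, own scale per panel) by oxygen level and antimiR (scr, scrambled; a34a, antimiR-34a). Blue points are 21% O2, red points 85% O2, open points not well above background and lines group means of 4 mice; in 85% O2 the antimiR-34a mice lie above the scrambled mice for Tnfsf18 and Cd40, and the groups overlap for Tnfrsf25.

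In the other comparisons of the antimiRs no member was called by limma. In 21% O2 at P5, 0 of 41 were called, beside 0.136% of all probes, and 11 had an unadjusted p under 0.05. Cd40 (0.25, adjusted p = 0.0820), Tnfsf10 (0.27, adjusted p = 0.0908) and Tnfrsf19 had the smallest p, Tnfrsf19 on its dimmer probe. On its brightest probe Tnfrsf19 differed by 0.24 (adjusted p = 0.212), and Tnfrsf10b differed by 0.27 (adjusted p = 0.192). In 85% O2 at P5, 0 of 41 were called, beside 0.0639%, and 8 had an unadjusted p under 0.05, led by Fas (-0.33, adjusted p = 0.120), Tnfrsf14 (0.70, adjusted p = 0.172) and Tnfrsf12a (-0.55, adjusted p = 0.239). In 21% O2 at P14, 0 of 45 were called, beside 0% of all probes, and 6 had an unadjusted p under 0.05, led by Fas (-0.16), Tnfrsf1b (-0.24) and Lta (-0.38), each with an adjusted p of 0.474.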

How the data were processed

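RNA of 32 lungs was hybridised to 1-colour Agilent arrays, with 4 mice in each of 8 groups. Per the file headers, the deposited spot intensity was background-subtracted within each array by Feature Extraction 10.7.3.1, with probe annotation of build mm9. The authors' series table of log2 values has the same distribution on every array, by a method not given in the sources used here, and served as an alternative. The labels and the study's methods name different RNA kits.

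Control spots and outlier spots (0.211%) were left out, spots of a probe were averaged, and log2 intensity was scaled to the 75th percentile of each array. Probes entered a test when all 4 arrays of some group fitted there were well above background. limma 3.58.1 in R 4.3.3 was fitted over the 4 groups of an age, or over all 8 groups for comparisons across ages. P-values were adjusted by Benjamini-Hochberg across every tested probe, with a threshold of 0.05. The fit was tested on simulated data. Each gene is given by its brightest tested probe. Named genes were those called, a fixed set of TNF and death genes, and the 3 smallest p where none was called. In the comparison of ages and the oxygen comparisons of antimiR-34a mice, only part of these genes is named. Some age and oxygen-by-age calls beyond those named with a left-out array are given as counts in the closing section. Members, roles and gene lists were chosen with earlier results of these data known. Alternatives were normexp, quantile normalization, the authors' table, both filters on dim probes, fits of the compared groups alone, the methods' t-test, the replicate number as a block, and leaving out each array.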

Additional observations from a re-analysis of the deposited data

Results flagged for a closer look

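In 5 of the 144 groups of 4 mice checked, for 18 genes, 1 mouse stood well away from its 3 companions. By chance, about 1 in 20 groups would do so. Tnf was -2.40 in scrambled replicate 1 in 85% O2 at P14, with the others at -2.93 to -2.86. Among the antimiR-34a mice in 85% O2 at P14, Tnfsf13b was -1.26 in replicate 1 (others -0.84 to -0.79), Cd40 was 1.92 in replicate 1 (others 2.04 to 2.06) and Tnfrsf4 was 0.06 in replicate 4 (others 0.78 to 0.86). Tnfrsf25 was 1.46 in scrambled replicate 4 in 21% O2 at P5 (others 1.81 to 1.88), the array that also stood apart in skeletal muscle genes.

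The oxygen difference of scrambled mice differed between P14 and P5 for 16 genes on their brightest probe, by the test of that difference (limma). It was more positive at P14 for Tnfsf8 (1.69), Tnfrsf23 (1.32), Tnfsf13b (1.09), Tnfrsf11a (1.06), Tnfrsf26 (1.01), Tnfrsf4 (0.89), Tnfrsf9 (0.88) and Tnf (0.66). It was also more positive for Tnfsf18 (2.07), a fitted value only, since this probe was well above background on 4 of 4 arrays in 85% O2 at P14 and on 0 or 1 of 4 in the other scrambled groups. It was more negative for Tnfrsf13c (-1.22), Fas (-1.18), Tnfrsf25 (-1.10), Tnfrsf21 (-1.09), Tnfsf10 (-0.92), Cd27 (-0.89) and Tnfsf14 (-0.71). Age and oxygen level cannot be told apart from slide in these values.

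Tnfsf11 (RANK ligand), which was not kept, was well above background on 2 arrays, both of antimiR-34a mice in 85% O2 at P14, and on 0 of 4 in 21% O2.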

How the results depend on the processing

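Over 8 settings of the processing, the called member probes ranged in scrambled mice from 13 to 24 at P5 (18 as reported) and 24 to 32 at P14 (30), in antimiR-34a mice from 15 to 23 at P5 (21) and 29 to 36 at P14 (36), and between ages from 19 to 29 (27). The oxygen difference between ages had 15 to 21 calls over 7 settings (19). AntimiR-34a in 85% O2 at P14 had 3 calls, which became 0 with the methods' t-test, 0 with only the groups compared and 1 with normexp. In 21% O2 at P5 there was 1 call with only the groups compared, and in 85% O2 at P5 there were 3 without a filter. Where a comparison used all groups of the fit, a fit of those groups alone gave no further value, and the t-test was run only for comparisons of 2 groups.

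Leaving out 1 array at a time gave 16 to 21 calls (scrambled, P5), 27 to 31 (scrambled, P14), 20 to 22 (antimiR-34a, P5), 33 to 37 (antimiR-34a, P14), 22 to 26 (ages), 16 to 20 (oxygen by age), 1 to 4 (antimiR-34a in 85% O2 at P14), 0 to 1 (oxygen by antimiR, P14) and 0 to 0 in the other antimiR comparisons. Of the single-gene values, 91 of those without 1 array and 89 of those under other settings lost their call, 7 and 18 gained one, and 3 and 14 changed sign. In scrambled mice at P14, Cd27, Tnfrsf9 and Tnfsf18 lost their call with normexp, and Lta, Ltb, Tnfrsf13c, Tnfrsf17 and Tnfrsf9 with the methods' t-test. At P5, Lta lost its call with normexp, and Tnfrsf11b, Tnfrsf13b, Tnfrsf1a, Tnfrsf25, Tnfsf12, Tnfsf13b and Tnfsf9 with the t-test. Between ages, calls were lost by Tnf, Tnfsf8 and Tnfrsf13b with normexp, by Tnfrsf13b, Tnfrsf21, Tnfsf12, Tnfsf15, Tnfsf8 and Tnfsf9 with the t-test, by Tnfrsf13b and Tnfrsf26 with the authors' table and quantile, by Ltb without a filter and by Tnfsf12 with only the groups compared. For oxygen by age they were lost by Cd27 (authors' table, quantile, normexp, no filter), Tnf (normexp, no filter, only the groups compared), Tnfsf18 (normexp, no filter) and Tnfsf14 (normexp). Calls were gained by Fas at P14 (authors' table and quantile), Tnfrsf1b at P5 (4 settings) and Tnfrsf22 at P14 (6 settings).

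Tnfrsf17, called at -0.74 in scrambled mice at P14, was 0.15 with normexp. The other sign changes were in values not called. In scrambled mice at P14 Fasl was 0.14 (normexp), Tnfrsf1a -0.04 (authors' table and quantile) and Tnfrsf1b 0.01 (authors' table), 0.02 (quantile) and 0.01 (without 85% O2 replicate 2). In antimiR-34a mice at P14 Fas was -0.03 (authors' table and quantile) and Fasl 0.55 (authors' table and quantile) and 0.08 (normexp). Between ages Tnfrsf22 was -0.12 (authors' table and quantile), Tnfrsf10b -0.02 (normexp) and -0.04 (without P14 replicate 4), and Tnfrsf14 from -0.23 to 0.06 over the arrays left out, the latter without P14 replicate 4. The cause was not tested. The median of all probes at P14 moved from -0.07 to 0.10 in scrambled mice (normexp) and from -0.12 to 0.08 in antimiR-34a mice (quantile). Single genes moved by more or less than this median.

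Whether replicate numbers pair the mice was not tested. Deviations of same-numbered mice correlated from -0.126 to 0.154 over 24 pairs at P5, and at P14 between -0.354 and 0.499. Those of differently numbered mice correlated from -0.334 to 0.383 over 72 pairs at P5, and at P14 between -0.808 and 0.725. The medians were 0.0091 against -0.0114 at P5 and 0.0407 against -0.0224 at P14. At P14, 6 of 24 against 7 of 72 pairs exceeded 0.1, and at P5 4 against 9. With the replicate number as a block, calls were 20 and 32 in scrambled mice, 22 and 36 in antimiR-34a mice, 27 between ages, 19 for oxygen by age and 2 for antimiR-34a in 85% O2 at P14, where Tnfsf18 lost its call (adjusted p = 0.0661). Tnfsf9 lost its call between oxygen levels in scrambled mice at P14.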
